A study of Mus musculus with 4 samples.

Results

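The genes described here are the xenobiotic receptors Ahr, Arnt, Nr1i2 and Nr1i3, the cytochrome P450 genes Cyp1a1, Cyp1a2, Cyp3a11, Cyp3a13 and Cyp3a25, and the P450 reductase gene Por. They were chosen by symbol, and all 10 were found among the 24421 symbols of the deposited mouse table. RNA came from liver of hepatectomized mice. In the gelADSC group (2 libraries, numbered 2 and 3) the mice had received ADSC, adipose-derived stem cells, carried in fibrin gel, and in the control group (2 libraries, numbered 1 and 3) fibrin gel without cells. Both groups therefore shared the hepatectomy and the gel. The labels state neither the strain, sex and age of the mice nor the time after surgery, the origin of the ADSC or whether each library was a separate animal, so the p-values measure the spread between these libraries, which may be technical.

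A liver cell meets drugs, pollutants and steroids with receptors that act as transcription factors. AhR, encoded by Ahr, binds planar aromatic ligands, enters the nucleus and pairs with ARNT, and the pair switches on Cyp1a1 and Cyp1a2. PXR (Nr1i2) and CAR (Nr1i3) are nuclear receptors that pair with RXR and switch on Cyp3a genes, among them Cyp3a11, the main Cyp3a of mouse liver, as well as Cyp2b and Cyp2c genes. The enzymes encoded by the Cyp genes are microsomal monooxygenases, and all of them take electrons from NADPH through the 1 reductase that Por encodes.

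The promoters of the P450 genes are shown because Cyp1a1 and Cyp1a2 were both higher in gelADSC, and because the neighbours Cyp3a11 and Cyp3a25 differed in their values. Sequences are RefSeq's on GRCm38.p6, 250 bases before to 50 after the annotated start, written 5′ to 3′ on the strand of the gene. The build behind the deposited values is not known, so the coordinates belong to RefSeq and not to the table. The windows are chr9:57697363-57697662 (+ strand) for Cyp1a1, chr9:57683606-57683905 (- strand) for Cyp1a2, chr5:145879805-145880104 (- strand) for Cyp3a11, chr5:137921570-137921869 (- strand) for Cyp3a13 and chr5:146009569-146009868 (- strand) for Cyp3a25. Capitals mark matches, on either strand, to the AhR core GCGTG, to the nuclear receptor hexamers AGTTCA and AGGTCA, to the HNF4 repeat CAAAGTCCA, or to the TATA box TATAAA.
Cyp1a1: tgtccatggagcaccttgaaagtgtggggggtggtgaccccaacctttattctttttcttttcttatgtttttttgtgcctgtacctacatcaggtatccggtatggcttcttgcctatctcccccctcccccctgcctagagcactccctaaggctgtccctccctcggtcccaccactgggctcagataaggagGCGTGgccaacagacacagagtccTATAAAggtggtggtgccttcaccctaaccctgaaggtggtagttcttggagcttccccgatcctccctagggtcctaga
Cyp1a2: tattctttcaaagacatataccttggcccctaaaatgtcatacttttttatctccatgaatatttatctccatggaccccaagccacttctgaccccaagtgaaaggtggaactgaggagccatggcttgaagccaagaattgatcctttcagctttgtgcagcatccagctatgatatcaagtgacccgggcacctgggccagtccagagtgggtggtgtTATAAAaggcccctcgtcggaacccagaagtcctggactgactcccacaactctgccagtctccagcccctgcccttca
Cyp3a11: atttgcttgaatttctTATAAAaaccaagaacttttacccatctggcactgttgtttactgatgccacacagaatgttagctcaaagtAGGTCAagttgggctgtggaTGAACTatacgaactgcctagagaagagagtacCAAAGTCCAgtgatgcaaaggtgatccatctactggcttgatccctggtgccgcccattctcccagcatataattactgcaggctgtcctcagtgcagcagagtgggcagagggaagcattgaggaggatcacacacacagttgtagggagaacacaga
Cyp3a13: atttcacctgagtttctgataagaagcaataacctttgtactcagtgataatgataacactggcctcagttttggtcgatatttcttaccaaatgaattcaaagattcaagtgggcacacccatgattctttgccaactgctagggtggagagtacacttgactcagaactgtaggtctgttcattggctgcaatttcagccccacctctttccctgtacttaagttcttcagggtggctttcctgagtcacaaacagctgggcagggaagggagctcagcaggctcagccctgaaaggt
Cyp3a25: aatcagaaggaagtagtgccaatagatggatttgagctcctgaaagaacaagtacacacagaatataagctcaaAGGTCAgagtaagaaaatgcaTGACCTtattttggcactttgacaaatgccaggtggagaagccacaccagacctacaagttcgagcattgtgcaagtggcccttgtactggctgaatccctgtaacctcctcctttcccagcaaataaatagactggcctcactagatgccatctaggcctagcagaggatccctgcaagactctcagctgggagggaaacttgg

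Within these windows the AhR core stood once in Cyp1a1, at position -54 from the start, and not in Cyp1a2. Sequence outside the windows was not searched. The core was not limited to Cyp1a1 among the members. In windows of the same length it also stood in Arnt at -29, and in Por at -202 and on the reverse strand at -62 and -24. Both Cyp1a genes had a TATA box close to the start, at -30 in Cyp1a1 and at -29 in Cyp1a2. Cyp3a11 held AGGTCA at -162, AGTTCA on the reverse strand at -142 and the HNF4 repeat at -109, and it held the TATA letters only at -234. Cyp3a25 held AGGTCA at -176 and again on the reverse strand at -155. None of the 5 motifs matched in Cyp3a13. Of 27025 promoters of the same length, 32.5% held GCGTG, 14.0% AGTTCA, 16.0% AGGTCA, 0.477% CAAAGTCCA and 14.2% TATAAA. In RefSeq, Cyp1a1 and Cyp1a2 are neighbours on chromosome 9 on opposite strands, and Cyp3a11 and Cyp3a25 are neighbours on chromosome 5, while 126 protein-coding genes lie between Cyp3a13 and Cyp3a11.

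Values are FPKM, a level scaled by gene length and library depth. The libraries held approximately 18100000 to 24400000 reads, as read from the smallest steps between values. Changes are differences of mean log2(FPKM + 1), gelADSC minus control, tested with limma over the 11070 genes that averaged 1 FPKM or more and called at a Benjamini-Hochberg adjusted p under 0.05. Over all tested genes 6.92% were called higher in gelADSC and 17.5% lower, so that 28.3% of all calls were higher, against 44.2% after median ratio scaling and 48.2% after quantile normalization. The median difference over all genes was -0.25, so a gene with no difference in FPKM stood above most genes. Livers of the gelADSC group had more Cyp1a2, Cyp3a13 and Cyp3a11 transcript and less Nr1i2. That is 3 of the 9 tested members higher and 1 lower. Leaving out a library moved these counts. With control library 1 left out, 2 members were higher and 0 lower (2.76% and 3.01% of all genes), and with control library 3 left out 3 were higher and 0 lower (4.96% and 15.3%). When gelADSC library 2 was dropped 3 were higher and 2 lower (6.99% and 10.9%), and when gelADSC library 3 was dropped 4 were higher and 0 lower (5.97% and 14.4%). For Ahr, Arnt, Nr1i3, Cyp3a25 and Por no call was made, and Cyp1a1 was too low for the test.

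**Figure D1:**
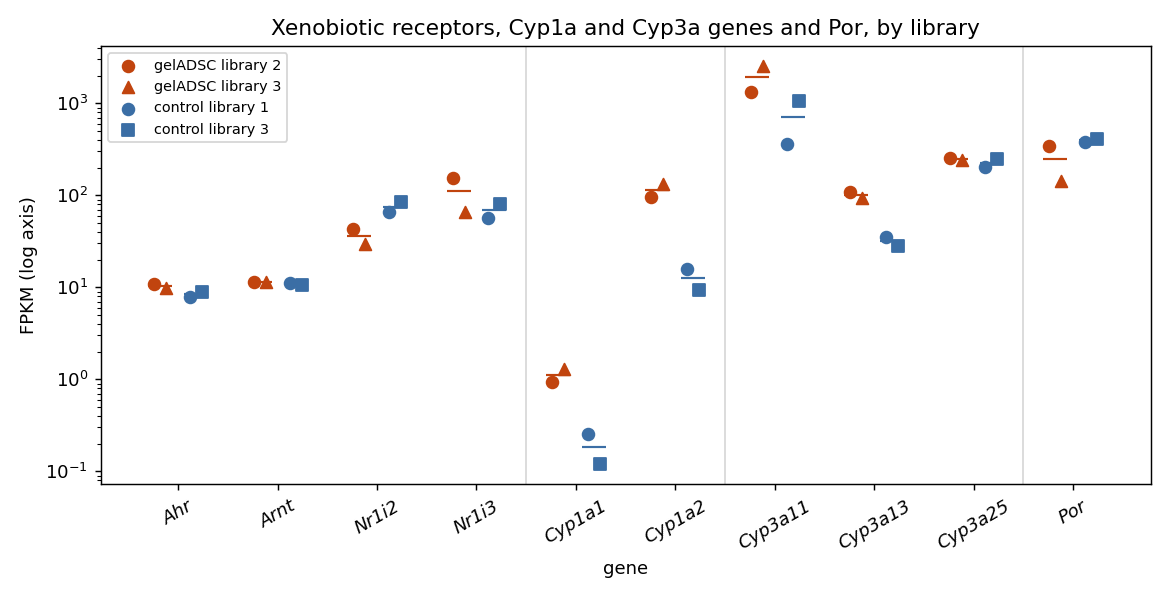
FPKM of the 10 genes in each library on a log axis. Each point is 1 library (gelADSC left in red, control right in blue) and short lines are group means. The groups are far apart for Cyp1a1, Cyp1a2 and Cyp3a13, and the libraries of a group are widely spread for Cyp3a11, Nr1i3 and Por.

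Ahr, the aryl hydrocarbon receptor, read 11.0 and 9.89 FPKM in gelADSC libraries 2 and 3, against 7.76 and 8.98 FPKM in control libraries 1 and 3. Both gelADSC libraries lay above both controls, but by little. The log2 difference was 0.29 (SE 0.20, 95% interval -0.16 to 0.74, limma adjusted p = 0.304). Arnt, its partner, read 11.5 FPKM in each gelADSC library, against 11.2 and 10.6 FPKM in the controls. This was the smallest difference among the tested members (log2 difference 0.071, 95% interval -0.36 to 0.50, limma adjusted p = 0.806). Expressed as a ratio on the FPKM + 1 scale, the interval for Arnt ran from 0.781 to 1.41. Ahr stood at 0.956 and 0.858 of the Arnt level in gelADSC, against 0.692 and 0.847 in control.

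Nr1i2, which encodes PXR, read 42.6 and 29.4 FPKM in gelADSC libraries 2 and 3, against 66.6 and 84.3 FPKM in control libraries 1 and 3. Both gelADSC libraries lay below both controls. PXR transcript fell to 36.0 ± 9.31 FPKM in gelADSC, against 75.5 ± 12.5 FPKM in control (SD, n = 2 each), with a log2 difference of -1.06 (SE 0.23, limma adjusted p = 0.0146). The call was lost with median ratio scaling (log2 difference -0.82, adjusted p = 0.122) and with quantile normalization (-0.80, adjusted p = 0.106). It was also lost with no limit on low values (adjusted p = 0.064) and when control library 1 (0.0803), control library 3 (0.0831) or gelADSC library 3 (0.0513) was left out, while the direction stayed negative in every alternative run.

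Nr1i3, which encodes CAR, read 156 and 66.3 FPKM in gelADSC libraries 2 and 3, against 57.2 and 81.0 FPKM in control libraries 1 and 3. The groups overlapped, because only gelADSC library 2 stood above the controls. Its log2 difference was 0.57 (SE 0.37, 95% interval -0.27 to 1.42, limma adjusted p = 0.276). The value turned on which gelADSC library was used. Without library 2 it was -0.038, and without library 3 it was 1.19. In either fit the spread came from the control libraries and was shared over genes by limma, so it was not measured for Nr1i3 itself. CAR transcript stood at 3.67 and 2.25 times PXR transcript in gelADSC, against 0.859 and 0.961 times in control. With 2 libraries against 2 the smallest two-sided p of an exact permutation test is 0.333, which is the value this ratio gave.

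Cyp1a2, the Cyp1 enzyme that liver makes without an inducer and that oxidizes caffeine and aromatic amines, read 96.9 and 131 FPKM in gelADSC libraries 2 and 3, against 15.8 and 9.28 FPKM in control libraries 1 and 3. The lowest gelADSC library was far above the highest control. Cyp1a2 rose to 114 ± 24.3 FPKM in gelADSC, against 12.5 ± 4.58 FPKM in control (SD, n = 2 each), with a log2 difference of 3.12 (SE 0.27, 95% interval 2.50 to 3.73, limma adjusted p = 0.000244). It was called in every alternative that kept all 4 libraries, with limma adjusted p values up to 0.0167. Over all 11 alternatives its log2 difference ran from 2.76 to 3.47.

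Cyp1a1, the inducible member of the pair that oxidizes polycyclic aromatic hydrocarbons, read 0.941 and 1.28 FPKM in gelADSC libraries 2 and 3, against 0.252 and 0.119 FPKM in control libraries 1 and 3. All 4 values were low and the groups did not overlap. After scaling by depth, these values stood in the ratio of the whole numbers 32 and 36 in gelADSC to 7 and 3 in control, so the control values rest on few reads (any common multiple of these numbers gives the same ratio). In the other members the smallest such number was 318, for Cyp1a2 in control library 3, and the highest 105754, for Cyp3a11 in gelADSC library 3. Its mean over the 4 libraries was 0.649 FPKM, under the limit for the test. When the limit was lowered to a mean of 0.1 FPKM, its log2 difference was 0.83 (SE 0.16, limma adjusted p = 0.0176), and with no limit the adjusted p was 0.0346. The added 1 FPKM compresses this difference, as the ratio of the group means on the FPKM scale was 5.99 for Cyp1a1 and 9.12 for Cyp1a2. Within a library, Cyp1a2 exceeded Cyp1a1 by 103 and 102 times in gelADSC, against 62.5 and 78.1 times in control (exact permutation p = 0.333).

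Cyp3a11 was the most abundant member, with 1342 and 2557 FPKM in gelADSC libraries 2 and 3, against 365 and 1073 FPKM in control libraries 1 and 3. The groups did not overlap, but control library 3 read 2.94 times control library 1 and came close to gelADSC library 2. The means were 1949 ± 859 FPKM in gelADSC and 719 ± 501 FPKM in control (SD, n = 2 each), with a log2 difference of 1.56 (SE 0.49, limma adjusted p = 0.0494). This adjusted p lay just under the threshold and crossed it in 7 of 11 alternatives. Without control library 1 the log2 difference was 0.79 (adjusted p = 0.342), with median ratio scaling the adjusted p was 0.125, with quantile normalization 0.149, and with a pseudocount of 5 it was 0.0627. The direction stayed positive in every alternative run.

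Cyp3a13, a Cyp3a gene outside the main cluster, read 108 and 94.8 FPKM in gelADSC libraries 2 and 3, against 34.9 and 28.5 FPKM in control libraries 1 and 3. The libraries of each group lay close together. Cyp3a13 rose to 101 ± 9.18 FPKM in gelADSC, against 31.7 ± 4.56 FPKM in control (SD, n = 2 each), with a log2 difference of 1.65 (SE 0.20, limma adjusted p = 0.00106), and it was called in all 11 alternatives. Its log2 difference was close to that of Cyp3a11, but its SE was less than that of Cyp3a11.

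Cyp3a25, a liver Cyp3a enzyme encoded next to Cyp3a11, read 254 and 240 FPKM in gelADSC libraries 2 and 3, against 204 and 249 FPKM in control libraries 1 and 3. The groups overlapped. Its log2 difference was 0.13 (SE 0.20, 95% interval -0.32 to 0.59, limma adjusted p = 0.651), and the interval ended below the point values of Cyp3a11 and Cyp3a13. Without control library 1 the value was -0.0094 (adjusted p = 0.985). Within the library, Cyp3a13 stood at 0.424 and 0.395 of the Cyp3a25 level in gelADSC, against 0.172 and 0.115 in control. Cyp3a11 stood at 5.27 and 10.7 times Cyp3a25 in gelADSC, against 1.79 and 4.31 times in control, and both ratios separated the groups (exact permutation p = 0.333 each).

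**Figure D2:**
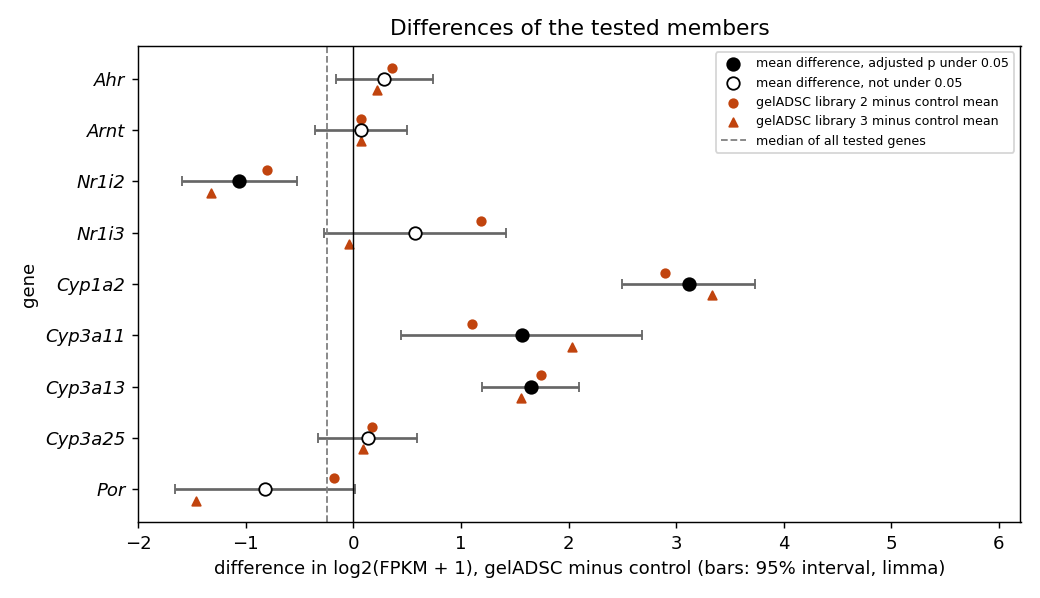
Differences in log2(FPKM + 1), gelADSC minus control, for the 9 tested members. Black and white circles are the mean difference with its 95% interval from limma, filled where the adjusted p was under 0.05, red symbols are each gelADSC library against the control mean, and the dashed line is the median of all tested genes at -0.25. The red symbols lie far apart for Nr1i3, Por and Cyp3a11.

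The summed FPKM of the 3 Cyp3a members was 1704 and 2891 in gelADSC libraries 2 and 3, against 603 and 1350 in control libraries 1 and 3. Cyp3a11 made up 78.7% and 88.4% of this sum in gelADSC, against 60.5% and 79.5% in control. Control library 3 thus had a larger Cyp3a11 share than gelADSC library 2, and the groups overlapped. Cyp3a25 made up 14.9% and 8.30% in gelADSC, against 33.7% and 18.4% in control, which did not overlap. The Cyp3a13 share was 6.32% and 3.28% in gelADSC, against 5.79% and 2.11% in control.

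The table held 9 Cyp3a genes in all, and the other 6 were low except Cyp3a59. Cyp3a59, beside Cyp3a25 in the cluster, read 26.3 and 30.1 FPKM in gelADSC, against 23.1 and 33.2 FPKM in control (log2 difference 0.024, SE 0.22, limma adjusted p = 0.947). Cyp3a44 read 0.668 and 2.18 FPKM in gelADSC, against 0.0767 and 0.141 FPKM in control, and lay under the limit for the test. At a limit of 0.1 FPKM its adjusted p was 0.049, and with no limit 0.109. Cyp3a41b was listed at 0 in every library. These genes have near-identical copies in the cluster, so the division of reads among Cyp3a11, Cyp3a16, Cyp3a41a, Cyp3a41b and Cyp3a44 is uncertain.

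Por, the reductase that feeds every microsomal P450, read 348 and 143 FPKM in gelADSC libraries 2 and 3, against 383 and 409 FPKM in control libraries 1 and 3. Both gelADSC libraries lay below the controls, library 2 by little and library 3 by much. The log2 difference was -0.82 (SE 0.37, 95% interval -1.66 to 0.014, limma adjusted p = 0.13). It was -0.18 without gelADSC library 3 and -1.46 without gelADSC library 2. The summed FPKM of the 5 P450 members was 5.17 and 21.1 times that of Por in gelADSC libraries 2 and 3, against 1.62 and 3.32 times in control libraries 1 and 3. The groups did not overlap in this ratio, and the gelADSC libraries differed more from each other than library 2 did from the controls.

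**Figure D3:**
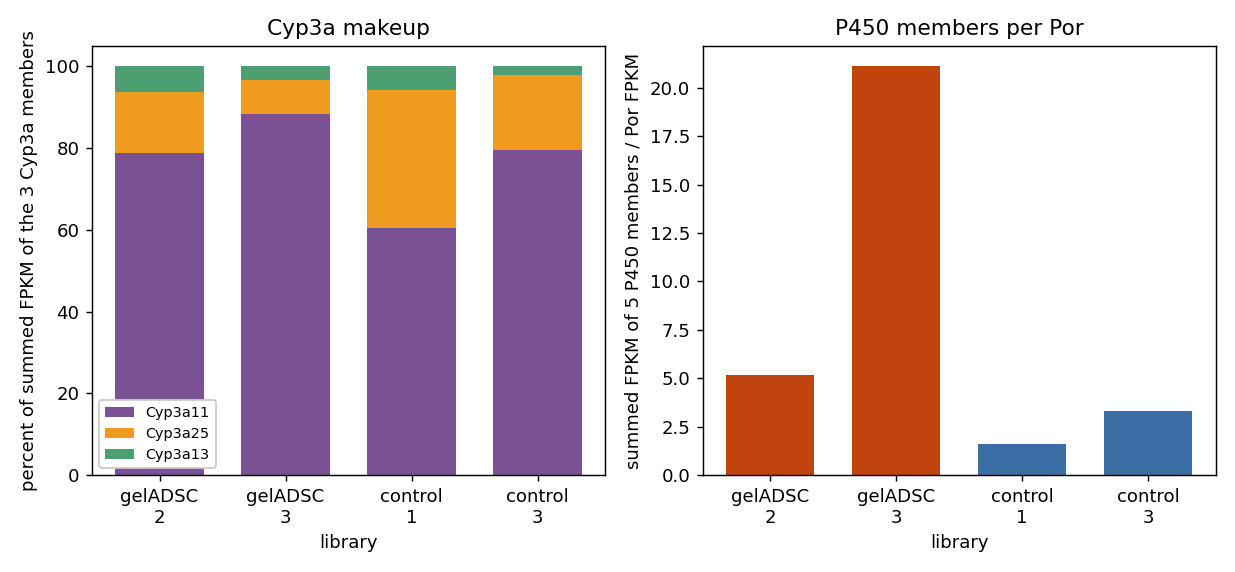
Left, percent of the summed FPKM of the 3 Cyp3a members held by each gene in each library. Right, summed FPKM of the 5 P450 members divided by the FPKM of Por, by library. Cyp3a11 holds most of the sum in every library, with 88.4% in gelADSC library 3 at one end and 60.5% in control library 1 at the other, and the ratio to Por is highest, at 21.1, in gelADSC library 3.

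Per length, the order of levels differed between the groups. In gelADSC it ran from Cyp3a11 through Cyp3a25 and Por (247 and 246 FPKM on average), then Cyp1a2, Nr1i3 and Cyp3a13 (114, 111 and 101 FPKM), Nr1i2, Arnt and Ahr to Cyp1a1. Cyp3a25 and Por overlapped between the libraries, and so did Cyp1a2, Nr1i3 and Cyp3a13. In control, Cyp3a11 and Por overlapped at the top, Cyp3a25 followed, and Nr1i2 and Nr1i3 overlapped. Cyp3a13 came next, and Cyp1a2 overlapped Arnt (12.5 and 10.9 FPKM on average), above Ahr and Cyp1a1. Groups did not overlap for 8 of the 10 members, 6 with gelADSC above and 2 with gelADSC below, where over all tested genes 19.2% lay above and 50.5% below. Cyp1a1, among the 6 above, was under the limit for the test and so is not part of these shares.

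By the distance between log2(FPKM + 1) values centred on each gene's mean over the 4 libraries, Cyp2c44 came nearest to Cyp1a2 (distance 0.096), with 109 and 161 FPKM in gelADSC, against 18.2 and 11.1 FPKM in control, followed by Cyp2c37 (0.33). Gbp2 (0.048) and Acat2 (0.12) were nearest to Nr1i2, Hsd3b5 (0.049) and Serpina1e (0.17) to Cyp3a13, and Ms4a6d (0.14) and Inhbe (0.22) to Por. Cyp3a11 had no close neighbour, with Klf15 at 0.63 and G6pc at 0.70. Nearest to Nr1i3 were Itgal (0.10) and 4930404H11Rik (0.15). For the members that differed little, Serpinf2 (0.032) was nearest to Ahr, Fbxo9 (0.0089) to Arnt and Uvrag (0.042) to Cyp3a25, and Chad (0.037) was nearest to the low Cyp1a1. With 4 libraries many genes share a pattern, and these distances carry no test.

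Around AhR, a list of chaperones and further targets gave 1 gene higher and 1 lower among 7 tested of 11 (1 and 3 at an unadjusted p under 0.05). Its median log2 difference was -0.32 against -0.25 over all tested genes, of which 6.92% were called higher and 17.5% lower. When control library 1 was left out, limma called 0 of the 7 (2 at an unadjusted p under 0.05), with adjusted p = 0.0532 for Tiparp and 0.0948 for Ugt1a6a. Dropping control library 3 or gelADSC library 3 gave 2 lower. Tiparp, an AhR target that in turn restrains the receptor, read 1.55 and 1.28 FPKM in gelADSC, against 6.16 and 4.84 FPKM in control, and fell (log2 difference -1.42, limma adjusted p = 0.00337). Ugt1a6a, a glucuronosyltransferase that shares exons with other Ugt1a genes, read 13.9 and 15.9 FPKM in gelADSC, against 5.94 and 7.94 FPKM in control, and rose (log2 difference 1.01, limma adjusted p = 0.0122). The chaperones Hsp90ab1 and Hsp90aa1, which hold AhR in the cytosol, were not called (adjusted p = 0.318 and 0.863 by limma). Of the AhR targets of the list, the called genes Tiparp and Ugt1a6a moved in opposite directions in the same libraries in which Cyp1a2 rose. Nqo1, a further target, read 7.34 and 10.9 FPKM in gelADSC, against 24.3 and 11.4 FPKM in control. It lay below both controls but was not called (log2 difference -0.83, limma adjusted p = 0.104). Cyp1b1 overlapped between the groups and was too low for the test. Aldh3a1 was listed at 0 in every library.

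Among 13 partners and coregulators of PXR and CAR, limma called 3 lower and 0 higher (3 and 1 at an unadjusted p under 0.05), with a median of -0.13. For this list and those below, the shares over all tested genes were 17.5% lower and 6.92% higher. Dropping either control library left 1 lower. With median ratio scaling or quantile normalization 1 was higher and 1 lower. Gadd45b, a stress gene and coactivator of CAR in mouse, read 5.89 and 2.74 FPKM in gelADSC, against 11.3 and 14.3 FPKM in control (log2 difference -1.43, limma adjusted p = 0.0115). That call was lost with either scaling (adjusted p = 0.089 and 0.106) and without control library 1 or 3 (adjusted p = 0.0995 and 0.0873). Nr0b2, the corepressor SHP, read 24.3 and 28.0 FPKM in gelADSC, against 66.3 and 70.7 FPKM in control (log2 difference -1.36, limma adjusted p = 0.00193). Dnajc7, a cochaperone that keeps CAR in the cytosol, read 16.0 and 18.9 FPKM in gelADSC, against 30.8 and 25.9 FPKM in control (log2 difference -0.67, limma adjusted p = 0.0408). Its call was lost with any of the 4 libraries left out, with adjusted p from 0.0586 without control library 3 to 0.267 without gelADSC library 2, and with either scaling. Rxra, the main dimer partner in liver, read 92.5 and 96.1 FPKM in gelADSC, against 82.6 and 102 FPKM in control, which overlapped (log2 difference 0.040, SE 0.19, limma adjusted p = 0.898). Rxrb was not called (adjusted p = 0.316).

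Targets of PXR and CAR outside the members went both ways, with 7 higher and 4 lower among 16 tested of 17 and a median of 0.46. Dropping control library 1 left 3 higher and 2 lower. Cyp2c29 read 328 and 673 FPKM in gelADSC, against 23.6 and 12.0 FPKM in control (log2 difference 4.72, limma adjusted p = 0.000177). Cyp2c37 read 42.2 and 73.4 FPKM in gelADSC, against 8.50 and 5.06 FPKM in control (log2 difference 2.90, limma adjusted p = 0.000621). In both Cyp2c genes, as in Cyp1a2, gelADSC library 3 was above library 2 and control library 3 below library 1, and both have near-identical copies. Cyp2b10 fell, with 5.61 and 8.75 FPKM in gelADSC, against 14.7 and 12.3 FPKM in control (log2 difference -0.85, limma adjusted p = 0.0354). Its adjusted p was the highest of the 4 lower calls. With no filter, a limit of 0.1 FPKM or either scaling the list had 3 lower, and whether Cyp2b10 kept its call there is not given here. Cyp2b9 rose from low control values, with 3.25 and 12.3 FPKM in gelADSC, against 0.0802 and 0.147 FPKM in control (log2 difference 2.76, limma adjusted p = 0.00436). Sult1e1, an estrogen sulfotransferase, read 7.84 and 1.58 FPKM in gelADSC, against 226 and 190 FPKM in control (log2 difference -5.45, limma adjusted p = 0.000247). Aldh1a1, a retinal dehydrogenase, rose (811 and 759 FPKM in gelADSC, against 219 and 323 FPKM in control, limma adjusted p = 0.0032), while its close copy Aldh1a7 read 172 and 155 FPKM in gelADSC, against 146 and 229 FPKM in control (adjusted p = 0.661).

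P450 enzymes need haem and electrons, and of 15 genes of microsomal electron transfer and haem metabolism limma called 3 higher and 0 lower (3 and 2 at an unadjusted p under 0.05), with a median of 0.16. Alas1, the first enzyme of haem synthesis and also a PXR and CAR target counted in the list before, read 212 and 230 FPKM in gelADSC, against 102 and 146 FPKM in control (log2 difference 0.85, limma adjusted p = 0.0288). Cpox, a later enzyme of that pathway, read 86.0 and 81.1 FPKM in gelADSC, against 37.1 and 49.7 FPKM in control (log2 difference 0.94, limma adjusted p = 0.0141). Cyb5b, a mitochondrial cytochrome b5, rose with a log2 difference of 0.71 (limma adjusted p = 0.0294). Cyb5a, the microsomal cytochrome b5 that can give electrons to P450 enzymes beside the reductase, read 890 and 1071 FPKM in gelADSC, against 1156 and 1056 FPKM in control (log2 difference -0.18, SE 0.22, limma adjusted p = 0.582). The haem-binding protein gene Pgrmc1 was not called (adjusted p = 0.257). When control library 1 was dropped, limma called 0 of these 15 genes (4 at an unadjusted p under 0.05), with adjusted p = 0.172 for Alas1, 0.104 for Cpox and 0.158 for Cyb5b. Dropping gelADSC library 3 lost the calls of Alas1 (0.0506) and Cyb5b (0.0624), and dropping gelADSC library 2 lost that of Cyb5b (0.13) and gave 1 gene lower. With either scaling Alas1 was not called (0.0636 and 0.0632).

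Among 16 hepatocyte factors known to act on Cyp genes, limma called 4 higher and 0 lower (7 and 2 at an unadjusted p under 0.05), with a median of 0.32. Dropping control library 1 left 1 higher, dropping control library 3 left 2, and dropping gelADSC library 3 gave 7. Onecut1, which encodes HNF6, read 8.88 and 27.3 FPKM in gelADSC, against 1.62 and 2.03 FPKM in control (log2 difference 2.57, limma adjusted p = 0.00425). Cebpa read 72.7 and 78.0 FPKM in gelADSC, against 26.8 and 29.2 FPKM in control (log2 difference 1.40, limma adjusted p = 0.00153). Nr1h4, the bile acid receptor FXR, read 57.1 and 36.2 FPKM in gelADSC, against 16.2 and 20.4 FPKM in control (log2 difference 1.28, limma adjusted p = 0.00898). Hnf4a, a master factor of hepatocytes, read 157 and 179 FPKM in gelADSC, against 168 and 197 FPKM in control, which overlapped (log2 difference -0.12, SE 0.20, limma adjusted p = 0.686). Ctnnb1 was not called (adjusted p = 0.0643). Without control library 1 the adjusted p was 0.103 for Onecut1 and 0.12 for Nr1h4, and without control library 3 it was 0.0517 for Onecut1.

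**Figure D4:**
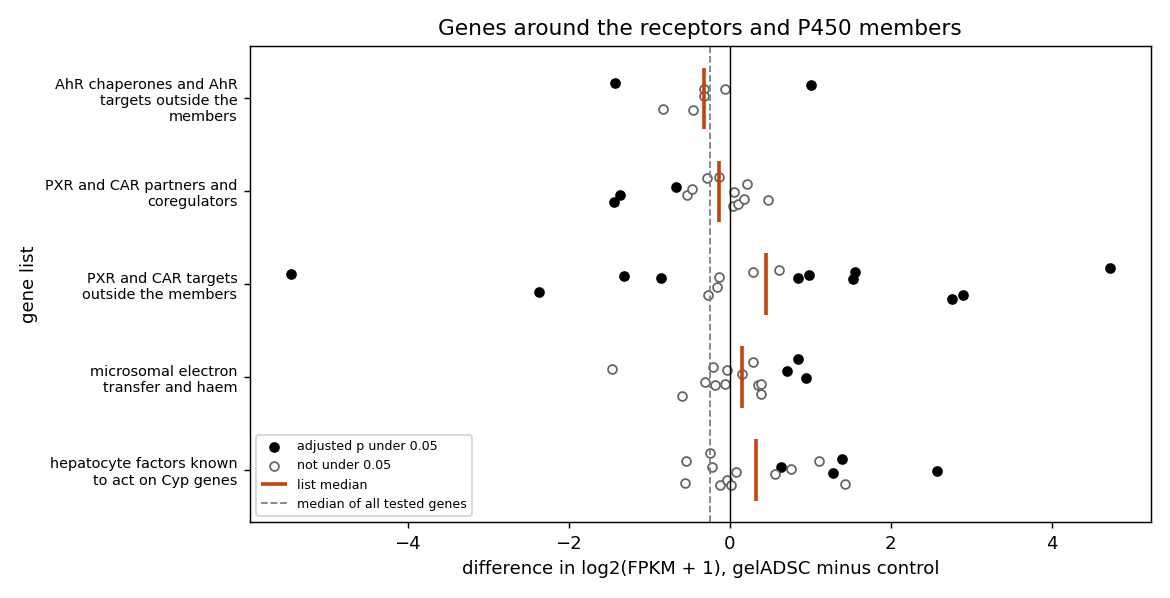
Differences in log2(FPKM + 1), gelADSC minus control, of tested genes in 5 lists around the members. Each point is a gene, filled where the adjusted p was under 0.05, red bars are list medians and the dashed line is the median of all tested genes at -0.25. The PXR and CAR targets spread widest, from Sult1e1 at -5.45 to Cyp2c29 at 4.72.

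Hepatocyte markers were abundant in every library, with summed levels of 48220 to 67061 FPKM in gelADSC and 59215 to 70875 FPKM in control, and limma called 0 of 8 (3 at an unadjusted p under 0.05). Markers of hepatocytes near the central vein, where Cyp1a2 and Cyp3a11 are normally made, rose for 7 of 10 (5 to 7 with a library left out) and summed to 3594 to 4648 FPKM in gelADSC and 561 to 800 FPKM in control, with none at 0. Most of that sum came from Cyp2e1 in every library, and Oat overlapped between the groups (log2 difference -0.24). Over all tested genes 6.92% were called higher. In bulk tissue, a change in the number of central vein hepatocytes and a change in RNA per cell cannot be told apart. Cycling markers summed to 9.59 and 76.2 FPKM in gelADSC libraries 2 and 3, against 1.34 and 1.91 FPKM in the controls, so gelADSC library 3 had the most of them. Members differed between the gelADSC libraries in both directions. In library 3 minus library 2, Por, Nr1i3 and Nr1i2 were lower (-1.28, -1.22 and -0.52 in log2(FPKM + 1)). Cyp3a11 and Cyp1a2 were higher (0.93 and 0.43), and the other members differed by less. A link to the cycling markers was not tested. Cholangiocyte markers summed to 49.5 to 57.7 FPKM in gelADSC and 170 to 311 FPKM in control, most of it from Spp1. Krt7 and Epcam overlapped between the groups. Kupffer cell markers summed to 169 to 294 FPKM in gelADSC and 303 to 315 FPKM in control. Of these 8 genes limma called 1, Cd68, which was lower, and 17.5% of all tested genes were called lower. Adgre1 and Cd5l lay above both controls, Cd68 and Vsig4 lay below both, and the others overlapped. Sinusoidal endothelium markers summed to 94.4 to 101 FPKM in gelADSC and 89.6 to 98.1 FPKM in control, stellate cell markers to 106 to 129 FPKM in gelADSC and 72.7 to 156 FPKM in control, and neutrophil markers to 25.8 to 73.0 FPKM in gelADSC and 66.2 to 72.6 FPKM in control. Markers of portal vein hepatocytes split, with 3 higher and 2 lower of 8 tested and a median log2 difference of 0.90. They summed to 2492 to 2920 FPKM in gelADSC and 2618 to 4389 FPKM in control, most of it from Pck1 and Arg1. Ass1, also a marker of that list, added almost nothing to this sum. It read 0.151 and 0.0913 FPKM in gelADSC, against 0.0308 and 0.102 FPKM in control, too low for the test. Cyp2f2, a P450 gene of that list, read 303 and 475 FPKM in gelADSC, against 36.0 and 25.4 FPKM in control (log2 difference 3.60, limma adjusted p = 0.00012). Leaving out a library gave 1 to 5 portal markers higher and 1 to 3 lower, with 1 and 1 when control library 1 was dropped. Lymphocyte markers summed to 1.91 to 2.84 FPKM in gelADSC and 0.231 to 0.258 FPKM in control, too low for the test. Of adipose markers, which summed to 12.6 to 43.0 FPKM in gelADSC and 53.5 to 105 FPKM in control, Adipoq, Plin1, Lep and Retn were listed at 0 in gelADSC library 3 and control library 3. Of 5 erythroid markers the 4 haemoglobin genes were listed at 0 in every library, whereas Alas2, the erythroid form of the first haem enzyme, read 40.1 and 38.9 FPKM in gelADSC, against 11.0 and 9.99 FPKM in control. Alas2 rose (log2 difference 1.82, limma adjusted p = 0.000531) and was called higher with any of the 4 libraries left out. The part of these cell types in the results above was not tested.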

How the data were processed

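RNA of 4 mouse liver samples, 2 of the gelADSC group and 2 of the control group, was sequenced from polyadenylated RNA with a stranded kit, per the labels' protocols. The deposited table gives 1 value per gene symbol and library, and its header names no unit. The values were taken as FPKM made by the authors, since Cufflinks 2.2.1, Trimmomatic 0.38 and TopHat2 2.1.1 stand in the submitters' processing notes, without order or settings. Those notes name hg19, which cannot be the build of mouse symbols. The counting step and annotation are not given in any source used. Column names give the group and a number that differs from the numbers in the titles, so columns were assigned to groups only.

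Values sum to between 495761 and 517719 per library. Below 0.2 FPKM, values of 98.6% of 2163 genes were whole multiples of a gene's own step within a tolerance of 0.001, which gave the relative depth. Of 477 genes with 1 transcript in GENCODE M21, 215 fell in the most frequent bin, so the read totals are approximate. Genes averaging 1 FPKM or more were tested on log2(FPKM + 1), with no added scaling, by limma (version 3.58.1, R 4.3.3) with its mean-variance trend. The test was two-sided and was tested on simulated data. Count tests were not used because FPKM are not counts. Exact permutation tests of ratios used scipy 1.17.1. Alternatives were pseudocounts of 0.1 and 5, no limit on low values or a limit of 0.1, median ratio scaling, quantile normalization, no trend and each library left out. All 10 members are named. Of each list the text names up to 3 called genes with the largest difference and 2 more with the highest level, and it adds a few further list genes. For each member it names the nearest 1 or 2 genes. Of 163 list symbols, 1 was found under a RefSeq synonym and 1 was not matched. The members and lists were chosen with earlier results of these data known. RefSeq promoters matched 9 of 10 members by symbol, all but Ahr.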

Additional observations from a re-analysis of the deposited data

How the results depend on the processing

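The 11 alternatives kept the direction of each tested member, except with a library left out, where Nr1i3 ran from -0.038 (without gelADSC library 2) to 1.19 and Cyp3a25 from -0.0094 (without control library 1) to 0.28. Between 2 and 4 members were called higher and between 0 and 2 lower with a library left out. The count of lower members, 1, was 0 with median ratio scaling, quantile normalization or no filter. Of higher members, Cyp3a11 lost its call with a pseudocount of 5, no filter, a limit of 0.1, either scaling or no trend, with adjusted p values up to 0.186, and without control library 1 (0.342). With a library left out, 303 to 775 genes were called higher and 331 to 1708 lower, the least without control library 1. Genes called lower were 730 with no filter, 1123 after median ratio scaling and 1000 after quantile normalization, against 1936, and those called higher were 525, 889 and 931, against 766. The scalings moved the median difference of all genes to -0.041 and -0.039. The higher calls were 28.3% of all calls, and 44.2% and 48.2% with the 2 scalings.

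With no filter, the counts called higher were 0 for the AhR list, 4 for PXR and CAR targets, 0 for electron transfer and haem and 1 for hepatocyte factors, and 1 PXR and CAR partner was lower. With either scaling 1 partner was higher and 1 lower. At a limit of 0.1 FPKM 1 further Cyp3a gene was higher, and with a pseudocount of 0.1, 1 gene of electron transfer and haem was lower. With a library left out, the AhR list had 0 to 1 higher and 0 to 2 lower, partners 0 higher and 1 to 2 lower, targets 3 to 7 higher and 2 to 4 lower, electron transfer and haem 0 to 3 higher and 0 to 1 lower, and hepatocyte factors 1 to 7 higher. There only the group that keeps both libraries supplies spread, limma shares it over genes, and a single library in a group was taken to vary alike. Without gelADSC library 3, Arnt and Cyp3a11 had SEs of 0.35 and 0.32. Their control libraries, 3 minus 1, differed by -0.076 and 1.55 in log2(FPKM + 1), so these SEs did not follow a gene's own spread. Why these counts moved was not tested. Counting all Cyp3a genes in place of the members gave the same directions. No paired analysis was possible because the columns of the groups share only the number 3, which is not one that the labels give. With 2 libraries per group, the exact permutation test used for ratios within a library could not reach 0.05. Among the members, Cyp1a1 alone was under the limit for the test.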
